A study of Homo sapiens with 4 samples.

Results

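Spliced, chromatin-bound RNA was followed over 9 genes of the cell's internal calcium store in K562 cells that were wild type for SF3B1 or carried its K700E substitution. The 9 genes are TRDN, RYR2, ASPH, ITPR1, ITPR2, ITPR3, ATP2A2, ATP2A3 and STIM1, of 10827 genes that passed the filter on low counts and 17665 with any read over an annotated junction. The list was drawn up because TRDN was lower and RYR2 higher in the mutant libraries. Those 2 gene totals are therefore given as a description without a test. Tests are given for the other 7 genes and for how reads divide among a gene's introns and among the acceptors of 1 donor. Those measures compare reads within a gene, but a junction needed at least 10 reads over the 4 libraries to be tested. In TRDN and RYR2 the genotype with the higher total supplied most of those reads. All 9 genes passed the filter.

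K562 is a human erythroleukemia line. The labels call the cells immortalized epithelial. The wild-type group and the SF3B1 K700E group each held 2 libraries. The treatment text is the same for all 4 and says that a modified allele was induced with doxycycline at 1 µg/ml and that cells were taken at 4 days. Whether an inducible allele was also present in the wild-type cells is not stated there. The labels do not tie the 2 replicates of a genotype to separate cultures, and p-values then reflect only library-to-library spread, which may be technical. SF3B1 is the subunit of the U2 small nuclear ribonucleoprotein that grips the branch point when a 3′ splice site is chosen, and K700E is its most frequent substitution in myelodysplastic disease. Buffers held 25 µM α-amanitin, a polymerase II inhibitor, polyadenylated RNA was removed 3 times and ribosomal RNA was depleted. Reads that cross a splice junction were the only reads used, so each value counts RNA already spliced while still held on chromatin.

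Cells keep calcium in the endoplasmic or sarcoplasmic reticulum and let it out through channels in that membrane. RYR2, the cardiac ryanodine receptor, and the inositol trisphosphate receptors ITPR1 to ITPR3 are the release channels. ATP2A2 and ATP2A3 encode the SERCA pumps that refill the store. TRDN (triadin) and the junctin form of ASPH are membrane proteins that tie the calcium-binding protein calsequestrin to the ryanodine receptor. STIM1 senses the filling of the store through an EF hand on the luminal side and opens ORAI channels in the plasma membrane. Triadin, calsequestrin and RYR2 are known best from striated muscle, ATP2A3 from blood cells and platelets.

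The libraries held 3576184 and 3680968 uniquely mapped reads over junctions of the main chromosomes for the wild-type pair, and 4297393 and 5313934 for the mutant pair. Gene totals are given as CPM, the reads over a gene's annotated introns scaled to a library of 1000000 reads and corrected for composition. The 10 erythroid markers summed to 1613 and 2073 CPM in wild type and 1415 and 2142 CPM in the mutant, and none of them was at 0 in all libraries. Of 8 epithelial markers, CDH1, KRT5 and ESRP1 were at 0 in all libraries, while KRT8, KRT18 and KRT19 had reads in each and made up most of a sum of 348 to 483 CPM. Of 19 striated muscle markers, 8 were at 0 in all libraries, MYOD1 and MYOG among them. NEB and RYR1 made up nearly all of a sum of 847 to 952 CPM, NEB alone with 756, 848, 714 and 667 CPM. Their part in the values below was not tested, and in bulk RNA fewer cells that make a transcript cannot be told apart from less of it per cell.

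TRDN and RYR2 stood at opposite ends of the list. TRDN reads numbered 1027 and 633 in the wild-type libraries and 64 and 132 in the SF3B1 K700E libraries, which is 314 and 190 CPM against 16.1 and 27.5 CPM. Both mutant libraries lay far below both wild-type libraries. Mean TRDN was 252 ± 87.4 CPM in wild type and 21.8 ± 7.99 CPM in the mutant (SD, n = 2), 11.6-fold lower in the mutant, with a log2 difference of -3.52 (SE 0.35). In wild type 9.03% of tested genes had a higher total than TRDN, and in the mutant 59.4% did.

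RYR2 went the other way. It had 90 and 149 reads in wild type and 677 and 772 in the mutant, which is 27.5 and 44.8 CPM against 171 and 161 CPM. The mutant libraries lay above both wild-type ones and close to each other. The means were 36.2 ± 12.2 CPM and 166 ± 7.25 CPM (SD, n = 2), 4.58-fold higher in the mutant, with a log2 difference of 2.19 (SE 0.28). Across all tested genes, 0.933% were called at an adjusted p of 0.05 by edgeR's quasi-likelihood test, 0.333% higher and 0.6% lower. TRDN and RYR2 were picked on this contrast, so their place among those calls carries no further weight.

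**Figure D1:**
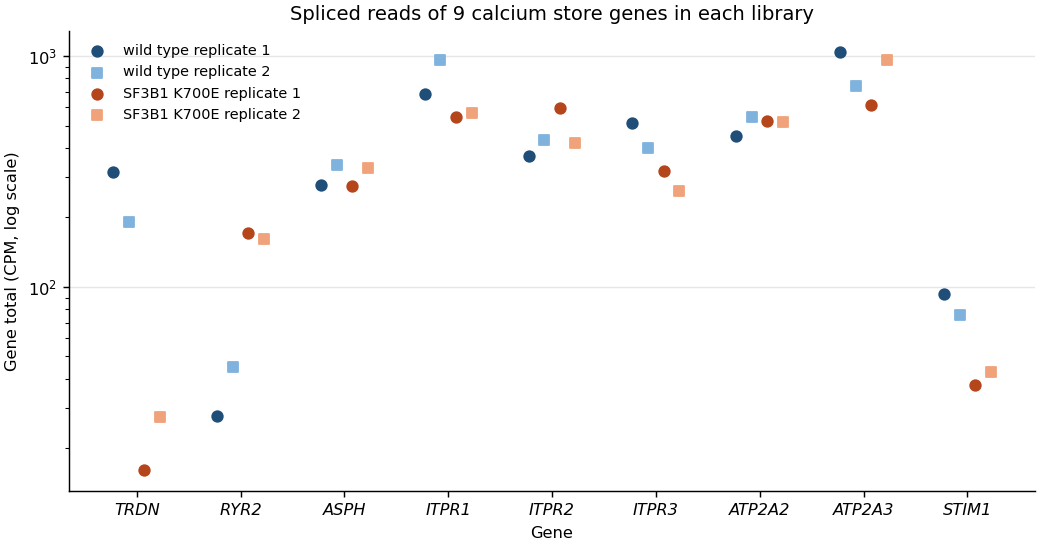
Gene total in CPM (log axis) of each of the 9 genes in each of the 4 libraries, wild type in blue and SF3B1 K700E in orange, 1 point per library. TRDN drops from 314 and 190 CPM to 16.1 and 27.5 CPM, RYR2 climbs from 27.5 and 44.8 CPM to 171 and 161 CPM, and the points of ASPH, ITPR2, ATP2A2 and ATP2A3 overlap between genotypes.

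None of the other 7 genes passed the test over all genes. Counting all 9, both mutant libraries were under the wild-type pair in 4 genes (TRDN, ITPR1, ITPR3 and STIM1) and above them in 1 (RYR2). This ordering is common with 2 libraries a group: 39.5% of all tested genes did not overlap, 20.1% with the mutant lower and 19.4% with it higher. Of the 7, edgeR called 0, limma voom called 0 and DESeq2 called 1, which was STIM1, and 3 (ITPR1, ITPR3 and STIM1) had an unadjusted edgeR p under 0.05, as had 10.1% of all tested genes.

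The levels themselves can be set side by side when CPM is averaged over the introns of each gene's reference transcript. In wild type the pumps came first, ATP2A3 with 43.7 ± 10.4 and ATP2A2 with 26.1 ± 3.35 CPM per intron (SD, n = 2). ITPR1 followed with 14.0 ± 3.29, and ASPH had 11.8 ± 1.59 CPM per intron. ITPR3 with 7.85 ± 1.40, STIM1 with 7.54 ± 1.00, ITPR2 with 7.08 ± 0.821 and TRDN with 6.30 ± 2.19 CPM per intron differed by less than their spread. RYR2 was the lowest with 0.343 ± 0.111 CPM per intron. In the mutant the pumps still came first, and TRDN took the last place with 0.545 ± 0.200 CPM per intron, below RYR2 with 1.59 ± 0.0688. Both genes are understated here, since their first introns had no reads in any library. From intron 20 on, TRDN had 11.9 ± 4.19 CPM per intron in wild type, beside ASPH, and 1.01 ± 0.346 in the mutant. From intron 18 on, RYR2 had 0.410 ± 0.133 and 1.90 ± 0.0822.

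TRDN (ENSG00000186439.12) spans chr6:123216339-123637093 on the minus strand, and only 1.86% of tested genes are longer. Its reference transcript TRDN-201 has 41 exons. Reads did not cover it from the annotated start. Introns 1 to 16 had 0 reads in all 4 libraries, introns 17 to 19 had 18 reads in all, and the 21 introns from intron 20 to the 3′ end had 1838. The spliced RNA of TRDN in these cells thus lay almost wholly in the part from exon 20 on, in both genotypes. The join into exon 20 came mostly from a donor that the annotation lacks.

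That junction, chr6:123366183-123367889, had 93 and 59 reads in wild type and 6 and 14 in the mutant. It leads from a site inside intron 19, 269204 bp downstream of the annotated gene start, into exon 20 (chr6:123366135-123366182), which is 48 nt long and wholly coding. Of all reads that enter exon 20, it took 94.3% ± 0.882 in wild type and 91.2% ± 12.5 in the mutant (SD, n = 2), so the same entry was in use in both. No read over it was multiply mapped, and its longest overhang was 48 nt. From exon 20 on, the transcript holds 914 of 2187 coding bases, or 41.8%, the end of the luminal region. Exon 20 is shown here because nearly all TRDN reads over annotated introns lie from it on. It is in capitals, with the last 20 bases of exon 19 and the first 20 of exon 21 in lower case, from GENCODE release 29 on GRCh38:
TRDN exon 20: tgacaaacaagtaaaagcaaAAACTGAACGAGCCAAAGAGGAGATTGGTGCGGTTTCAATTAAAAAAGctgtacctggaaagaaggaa

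Along the covered part the reads were uneven. Intron 20 held the most in each library, with 129 and 81 reads in wild type and 9 and 19 in the mutant. The next 8 introns together had 374, 239, 26 and 58 reads in the same order of libraries. Introns 29 to 31, beside the 18 nt exon 31, had 10 and 5 reads in wild type and 0 and 0 in the mutant. Introns 32 to 40 had 509, 300, 29 and 50 reads, and the last intron had 75, 34, 6 and 6. These stretches were marked off after their values were seen. Introns 21 to 28 held 37.1% ± 0.947 of TRDN's reads in wild type and 42.3% ± 2.34 in the mutant (SD, n = 2), without overlap. The share of TRDN reads over intron 20 was 12.7% ± 0.166 in wild type and 14.2% ± 0.234 in the mutant. That over introns 32 to 40 was 48.5% ± 1.53 and 41.6% ± 5.26. These shares did not overlap either. Each stretch had an exact p of 0.333 (permutation test, 2-sided), the smallest possible. Per intron, introns 32 to 40 had 17.3 and 10.0 CPM in wild type and 0.813 and 1.16 CPM in the mutant. Introns 21 to 28 had 14.3 and 8.98 CPM in wild type and 0.820 and 1.51 CPM in the mutant. Per intron, both stretches were thus nearly equal within SF3B1 K700E replicate 1, and introns 32 to 40 were the lower stretch within replicate 2. As a share of TRDN's reads, introns 32 to 40 had 49.6% and 47.4% in wild type and 45.3% and 37.9% in the mutant.

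**Figure D2:**
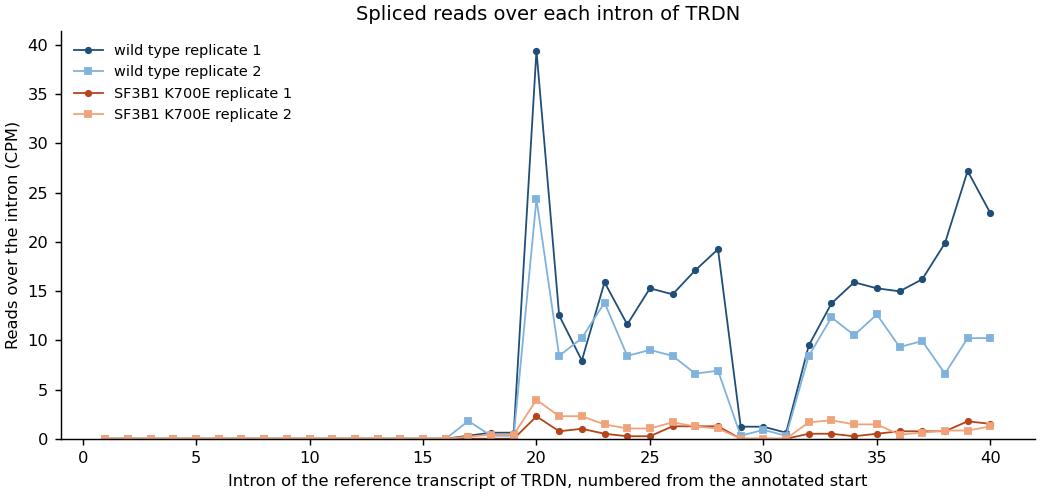
CPM over each of the 40 introns of TRDN-201 (vertical axis) against intron number from the annotated start (horizontal axis), 1 line per library. All 4 lines stay at 0 over introns 1 to 16 and begin at introns 17 to 20, and the SF3B1 K700E lines run below the wild-type lines over the covered part except where all are near 0.

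Relative to the gene's other introns, the largest shift among 18 introns with at least 10 reads was 0.79 on the log2 scale, at intron 22 (26, 34, 4 and 11 reads), with an unadjusted p of 0.122 by edgeR's diffSpliceDGE. Unannotated junctions made up 12.5% (95% Wilson interval 10.7 to 14.5) and 13.2% (10.9 to 15.8) of TRDN's junction reads in the wild-type libraries. In the SF3B1 K700E libraries the share was 12.3% (6.62 to 21.8) and 15.4% (10.6 to 21.9). The genotypes overlapped (exact permutation test, 2-sided, p = 1), and the junction into exon 20 supplied 172 of these reads.

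A pair of further unannotated junctions reached 10 reads. One skipped exon 31, an 18 nt coding exon, and had 11, 1, 1 and 3 reads in wild type replicates 1 and 2 and SF3B1 K700E replicates 1 and 2. It took 100% of the donor's 1 and 3 reads in the mutant libraries, and 73.3% of 15 and 25.0% of 4 in wild type, too few reads to compare. The other ended at an acceptor inside intron 40 and had 8, 4, 1 and 0 reads. A skip of exon 22 (51 nt) had 4 and 5 reads in wild type and 0 of 14 donor reads in the mutant, which allows a share of up to 21.4%. With 9 reads it lies under the naming minimum of 10 and was picked after its values were seen.

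RYR2 (ENSG00000198626.15) spans chr1:237042205-237833988 on the plus strand, and 0.388% of tested genes are longer. Its reference transcript RYR2-202 has 105 exons, and its spliced reads also began inside the gene. Introns 1 to 17 had 0 reads in every library, including the first intron of 227927 bp. The first annotated intron with reads was intron 18, with 1 and 8 reads in wild type and 22 and 13 in the mutant. Reads then ran on to intron 104, the last, and 83 of the 104 introns had at least 1. The 21 at 0 were introns 1 to 17, 61 to 63 and 75.

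The only junction into exon 18 was unannotated, chr1:237471352-237491805, with 1 and 1 reads in wild type and 8 and 0 in the mutant. Its donor lies inside intron 17, 429147 bp downstream of the annotated start, and its longest overhang was 63 nt. Such a small count places a splice event there but gives no rate for either genotype. Exon 18 (chr1:237491806-237491924) is a coding exon of 119 nt. The exons from 18 on hold 13193 of the 14901 coding bases, 88.5%, which takes in the channel pore at the 3′ end of the coding sequence. It is shown as the first annotated exon in RYR2's reads, in capitals, between the adjoining 20 bases of exons 17 and 19 in lower case, from the same transcript set:
RYR2 exon 18: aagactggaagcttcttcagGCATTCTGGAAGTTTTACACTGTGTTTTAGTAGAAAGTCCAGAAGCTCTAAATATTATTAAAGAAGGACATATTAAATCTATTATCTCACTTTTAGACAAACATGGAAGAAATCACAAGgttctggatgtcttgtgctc

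Of the 83 introns of RYR2 with reads, both mutant libraries had a higher CPM than both wild-type libraries in 73 and a lower one in 1. Over all annotated introns with a read in tested genes these shares were 17.2% and 15.6%. RYR2 was chosen for its higher total, which its introns share, so the count describes where the reads lie and is no separate result. The intron with the most reads, intron 28, had 2 and 8 reads in wild type and 24 and 23 in the mutant.

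The reads thinned out toward the 3′ end in each library. Introns 18 to 60 had 69 and 110 reads in wild type and 497 and 559 in the mutant, and introns 64 to 104 had 21, 36, 177 and 210. The second stretch, marked off after its values were seen, held 24.0% ± 0.936 of the gene's reads in wild type and 26.8% ± 0.740 in the mutant (SD, n = 2). Intron 104 had 0 and 0 reads in wild type and 1 and 4 in the mutant. The largest shift of an intron against the rest of the gene was at intron 70, with 0 and 0 wild-type reads and 10 and 10 mutant reads, an unadjusted p of 0.0237 and an adjusted p of 1 (edgeR diffSpliceDGE). Unannotated junctions took 6.25%, 2.61%, 4.78% and 3.50% of RYR2's reads in the 4 libraries, and the genotypes overlapped.

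**Figure D3:**
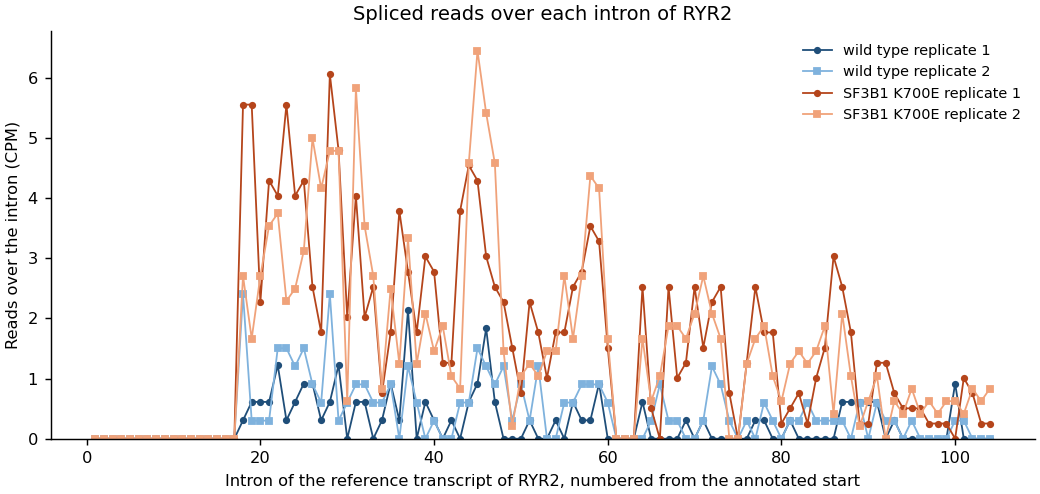
CPM over each of the 104 introns of RYR2-202 (vertical axis) against intron number from the annotated start (horizontal axis), 1 line per library. All lines are at 0 over introns 1 to 17, start together at intron 18 and decline toward intron 104, with the SF3B1 K700E lines above the wild-type lines at most introns.

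The genes next to TRDN and RYR2 did not pass the test. Of 19 annotated genes within 1 Mb of TRDN, 3 could be tested and 0 were called: HSF2 (log2 difference 0.31), SERINC1 (0.44) and PKIB (-0.37). Of 39 near RYR2, 6 could be tested and 0 were called. The largest of these differences was at EDARADD, with 29 and 38 reads in wild type and 131 and 68 in the mutant (log2 difference 1.21, edgeR adjusted p 0.325). ACTN2, a muscle α-actinin, had 15, 8, 28 and 3 reads. MTR and HEATR1, the neighbours with the most reads, had log2 differences of -0.19 and 0.44.

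The 3 genes whose pattern over the 4 libraries was most like that of TRDN, by Euclidean distance of centred log2 CPM, were ANKRD20A7P (distance 0.661), TMEM200A (0.663) and FCGR2B (0.752). All 3 had at most 8.56 CPM in any library, far fewer reads than TRDN. Nearest to RYR2 were TBCEL (0.242), SCN2A (0.297) and FAT1 (0.314). FAT1, an atypical cadherin, had 7.34 and 15.3 CPM in wild type and 56.8 and 43.3 CPM in the mutant. SCN2A, a voltage-gated sodium channel, had 2.14, 3.61, 13.4 and 11.2 CPM.

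ASPH (ENSG00000198363.17, chr8:61500556-61714640) encodes aspartyl/asparaginyl β-hydroxylase and, through other starts and ends, junctin and junctate of the reticulum membrane. It had 907 and 1121 reads in wild type and 1089 and 1579 in the mutant, or 277 and 337 CPM against 275 and 328 CPM. The genotypes overlapped almost wholly, at 307 ± 42.3 and 302 ± 37.9 CPM (SD, n = 2; log2 difference -0.03, SE 0.23, edgeR adjusted p 0.994). All 24 introns of ASPH-203 had reads, from 368 over intron 2 to 35 over intron 24, the last. Introns 13 of ASPH-203 and ASPH-201, which share a donor and end at different acceptors, had 19, 27, 36 and 54 reads and 27, 26, 29 and 47 reads. Of these reads 46.1% ± 6.82 in wild type and 54.4% ± 1.36 in the mutant took the ASPH-203 acceptor, with an unadjusted p of 0.591 for that acceptor and 0.593 for the other in the acceptor test.

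A pair of annotated alternative junctions of ASPH had a larger share in the mutant libraries without passing the test. The first, whose acceptor lies 3 nt beyond that of intron 10, had 1 and 0 reads in wild type and 5 and 11 in the mutant, 1.19% ± 1.68 against 11.0% ± 3.61 of the donor's reads (unadjusted p 0.00764, edgeR diffSpliceDGE adjusted p 0.741). The second, from the donor of intron 7, had 2, 3, 12 and 8 reads, 2.88% ± 0.585 against 11.3% ± 5.17 (unadjusted p 0.0198, adjusted p 1). In both, the mutant libraries lay above the wild-type ones. An unannotated skip of exon 13 (45 nt) had 4, 1, 3 and 3 reads, and an unannotated donor leading into exon 5 had 1, 5, 2 and 3.

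ITPR1 (ENSG00000150995.19, chr3:4493345-4847840) had the highest mean CPM per intron of the release channels in each genotype, although ITPR2 was above it in 1 mutant library. It had 2239 and 3185 reads in wild type and 2166 and 2714 in the mutant, or 683 and 957 CPM against 546 and 564 CPM. Both mutant values were under the wild-type ones, at 555 ± 12.3 against 820 ± 193 CPM (SD, n = 2). The log2 difference of -0.56 (SE 0.23) did not pass, with an unadjusted p of 0.0368 and an edgeR adjusted p of 0.435. Of the 58 introns of ITPR1-203, 37 had a lower CPM in both mutant libraries and 0 a higher one, and the median ratio over 57 introns was 0.669. Introns of 1 gene follow its total, which did not pass, and over all annotated introns with a read 15.6% were lower in both mutant libraries.

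The intron of ITPR1 that stood farthest from the rest is not in ITPR1-203. It starts after a 51 nt coding exon that ITPR1-202 counts as its exon 42 (chr3:4727123-4727173), and runs from chr3:4727174 to 4733087. It had 0 and 0 reads in wild type and 6 and 5 in the mutant, with a relative log2 change of 4.08, an unadjusted p of 0.000322 and an adjusted p of 0.831 (edgeR diffSpliceDGE). A count of 0 allows up to 3 reads, so the fitted value sets no size. Intron 19 had the most reads of ITPR1-203 (104, 103, 78 and 97), and the first and last introns had 260 and 89 over the 4 libraries. A skip of exon 5 (116 nt) had 0 of 172 donor reads in wild type, which allows a share of up to 1.74%, and 5 and 3 reads in the mutant, 5.68% ± 2.22. With 8 reads it was picked after its values were seen and was not tested.

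ITPR1 had 4 unannotated junctions with at least 10 reads, and none separated the genotypes by the test. A skip of exon 45 (111 nt) had 3, 5, 1 and 4 reads (unadjusted p 0.497). An acceptor inside intron 39 had 3, 2, 5 and 6 reads (unadjusted p 0.414). A donor inside intron 38 led into exon 39 with 6, 4, 3 and 4 reads, and a donor 5 nt from an annotated one near the 5′ end had 5, 1, 5 and 2.

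ITPR2 (ENSG00000123104.11, chr12:26336515-26833198) had 1202 and 1437 reads in wild type and 2357 and 2012 in the mutant, or 367 and 432 CPM against 595 and 418 CPM. The genotypes overlapped through the second mutant library, at 400 ± 45.7 and 507 ± 125 CPM (SD, n = 2; log2 difference 0.34, SE 0.24, edgeR adjusted p 0.742). All 56 introns of ITPR2-202 had reads, the most over intron 3 (95, 85, 112 and 114), and the first and last had 183 and 76. In 19 introns both mutant libraries lay above both wild-type ones, and in 3 below. Over all annotated introns with a read these shares were 17.2% and 15.6%. Introns of 1 gene follow its total, which overlapped between genotypes here. The largest relative shift was 0.65 on the log2 scale at intron 18, with 10, 8, 37 and 20 reads (unadjusted p 0.0782). A skip of exon 21 (151 nt) had 6, 0, 2 and 3 reads.

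ITPR3 (ENSG00000096433.10, chr6:33620365-33696574) had 1676 and 1323 reads in wild type and 1262 and 1249 in the mutant, or 512 and 398 CPM against 318 and 260 CPM. Both mutant libraries were lower, at 289 ± 41.5 against 455 ± 81.0 CPM (SD, n = 2). The log2 difference of -0.65 (SE 0.23) did not pass, with an unadjusted p of 0.0186 and an edgeR adjusted p of 0.318. All 58 introns had reads, 39 of them lower and 1 higher in both mutant libraries, which again follows the gene's total. Over all annotated introns with a read, 15.6% were lower and 17.2% higher in both mutant libraries. Intron 1 had 0 and 0 reads in wild type and 3 and 3 in the mutant, while intron 27, with the most reads, had 64, 57, 48 and 63, and intron 58, the last, had 26, 12, 27 and 13. The largest relative shift was -0.61 on the log2 scale at intron 45, with 25, 22, 14 and 7 reads (unadjusted p 0.0948).

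Set against each other per intron, ITPR2 made up a larger part of the 3 receptors in the mutant. Its share of their summed CPM per intron was 24.1% and 24.8% in wild type and 41.5% and 34.4% in the mutant, a difference of 13.5 percentage points (exact permutation test, 2-sided, p = 0.333, the smallest that 2 libraries against 2 can give). ITPR3 had 27.5% ± 7.40 and 21.3% ± 0.575 (exact p = 0.333), and ITPR1 had 48.1% ± 6.86 and 40.8% ± 5.56 (exact p = 0.667). These 3 comparisons were not adjusted, since none can pass 0.05. The sum of the 3 was 28.9 ± 2.72 CPM per intron in wild type and 23.4 ± 2.73 in the mutant.

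**Figure D4:**
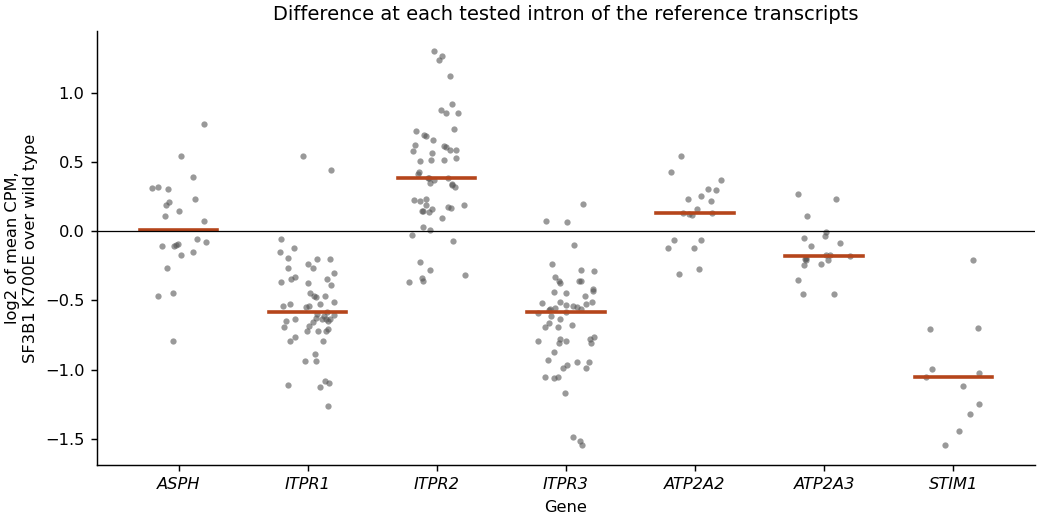
Log2 of the SF3B1 K700E over the wild-type mean CPM (vertical axis) for each intron of the reference transcript with at least 10 reads, 1 point per intron, with the median of each gene as a bar, for the 7 genes not chosen on their totals. The median ratios behind the bars run from 0.481 in STIM1 to 1.31 in ITPR2, and the points of every gene spread around its bar.

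ATP2A2 (ENSG00000174437.16, chr12:110280756-110351093) encodes SERCA2, the pump of heart muscle and most other tissues. Its reads were 1480 and 1805 in wild type and 2068 and 2497 in the mutant, or 452 and 543 CPM against 522 and 519 CPM. Both mutant values lay between the wild-type values, at 520 ± 1.72 against 498 ± 63.9 CPM (SD, n = 2; log2 difference 0.07, SE 0.22, edgeR adjusted p 0.977). All 19 introns of ATP2A2-204 had reads, the most over intron 10 (184, 198, 202 and 289), and the first and last had 375 and 379. The intron found only in ATP2A2-201, the SERCA2a form of muscle, had 0 reads in all 4 libraries. The last intron of ATP2A2-204 had 72, 80, 97 and 130.

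A skip of exon 4 was the ATP2A2 junction with the lowest p. It joins the donor of intron 3 to the acceptor of exon 5 (chr12:110282796-110296598) and is not annotated. It had 0 of 43 donor reads in wild type replicate 1, which allows up to 6.98%, and 3 of 67 in replicate 2. In the mutant it had 12 of 81 and 8 of 108 reads. Both mutant shares lay above both wild-type shares, at 11.1% ± 5.24 against 2.24% ± 3.17 (SD, n = 2), with an unadjusted p of 0.0474 and an adjusted p of 1 (edgeR diffSpliceDGE).

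An unannotated acceptor inside intron 16 of ATP2A2 was in regular use in both genotypes. Its junction, chr12:110343435-110344144, had 14, 21, 23 and 27 reads, 35.0% ± 0 of the donor's reads in wild type and 28.5% ± 1.37 in the mutant (unadjusted p 0.530). Donors a short way downstream, also unannotated, led on to exon 17 with 3, 2, 5 and 0 and with 1, 4, 3 and 10 reads. Relative to the gene's other introns, intron 16 itself had the largest shift, 0.33 on the log2 scale (26, 39, 55 and 71 reads, unadjusted p 0.220).

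ATP2A3 (ENSG00000074370.17, chr17:3923870-3964464) encodes SERCA3 and had the highest level of the list. Its reads were 3401 and 2470 in wild type and 2429 and 4603 in the mutant, or 1039 and 743 CPM against 613 and 957 CPM. The genotypes overlapped, at 891 ± 210 and 785 ± 244 CPM (SD, n = 2; log2 difference -0.18, SE 0.27, edgeR adjusted p 0.922). Intron 6 of ATP2A3-205 had the most reads (422, 302, 243 and 476), and the first and last introns had 450 and 378. ATP2A3 made up 62.1% ± 8.63 of the summed CPM per intron of both pumps in wild type and 57.8% ± 7.71 in the mutant (exact permutation test, 2-sided, p = 0.667).

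ATP2A3 also had an unannotated skip with a larger share in the mutant. The junction chr17:3951686-3953692 passes over exon 3, and had 2 of 149 donor reads and 0 of 75 in wild type, where the 0 allows up to 4%. In the mutant it had 7 of 109 and 9 of 173. The shares were 0.671% ± 0.949 and 5.81% ± 0.862 (SD, n = 2), apart in all libraries, with an unadjusted p of 0.0244 and an adjusted p of 1 (edgeR diffSpliceDGE). An annotated alternative at the 3′ end, chr17:3928328-3928662, had 2 of 121 and 4 of 94 reads against 10 of 98 and 16 of 192, or 2.95% ± 1.84 and 9.27% ± 1.32 (unadjusted p 0.0274, adjusted p 1). This junction also had the largest shift against the gene's other introns, 1.28 on the log2 scale.

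The skipped pump exons are printed because they are adjoining parts of related proteins: exon 4 of ATP2A2 (chr12:110292020-110292124, 105 nt) holds coding bases of the second transmembrane helix of SERCA2, and exon 3 of ATP2A3 (chr17:3953347-3953429, 83 nt) those of the first helix of SERCA3. Exon 4 of ATP2A2 is a multiple of 3 in length and exon 3 of ATP2A3 is not. Capitals mark the skipped exon and lower case the adjoining 20 bases of its neighbours, from GENCODE release 29 on GRCh38:
ATP2A2 exon 4: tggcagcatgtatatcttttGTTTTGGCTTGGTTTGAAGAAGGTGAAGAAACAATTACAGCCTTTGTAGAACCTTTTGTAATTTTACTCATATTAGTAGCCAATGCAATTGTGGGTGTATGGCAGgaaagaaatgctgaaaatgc
ATP2A3 exon 3: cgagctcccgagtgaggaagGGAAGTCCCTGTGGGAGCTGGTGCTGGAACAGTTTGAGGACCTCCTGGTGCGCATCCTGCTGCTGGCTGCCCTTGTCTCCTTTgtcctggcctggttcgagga
The rest of ATP2A3's unannotated junctions with at least 10 reads were donors inside introns, with 5, 2, 1 and 5 reads and with 3, 6, 9 and 9 reads.

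STIM1 (ENSG00000167323.11, chr11:3854527-4093210), the sensor of store filling, had 306 and 251 reads in wild type and 149 and 205 in the mutant. In CPM these were 93.5 and 75.5 against 37.6 and 42.6, and the mutant pair was the lower one in each comparison of single libraries. The means were 84.5 ± 12.8 and 40.1 ± 3.57 CPM (SD, n = 2), 2.11-fold lower in the mutant, with a log2 difference of -1.07 (SE 0.26). The edgeR adjusted p was 0.0911 and did not pass. DESeq2 gave an adjusted p of 0.0348, limma voom 0.0960, and edgeR without wild type replicate 2 gave 0.0373. Over the 10 alternatives fixed for this fit, the adjusted p ran from 0.0348 to 0.421.

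Of the 11 introns of STIM1-201, 10 had a lower CPM in both mutant libraries and 0 a higher one, with a median ratio of 0.481, beside 15.6% lower over all annotated introns with a read. The first intron of 111142 bp had 70, 44, 29 and 35 reads, intron 2, with the most, had 72, 48, 34 and 45, and the last had 7, 5, 2 and 4. Intron 5 had the largest relative shift, 0.61 on the log2 scale (9, 13, 8 and 18 reads, unadjusted p 0.135).

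Splicing within the 9 genes, tested by how reads divide inside each gene, gave no call. Of 342 introns tested, 0 were called by edgeR diffSpliceDGE and 0 by limma voom, and 6 had an unadjusted p under 0.05, or 1.75%. Over all genes, 0.011% of 117973 introns were called and 1.57% had an unadjusted p under 0.05, so the members stood near the background. Among acceptors of the same donor, 34 junctions at 16 donors in 6 of the genes could be tested, with 0 called by either tool and 5 with an unadjusted p under 0.05. Over all genes, 0.137% of 23366 junctions were called and 3.17% had an unadjusted p under 0.05. All 5 had the larger share in the mutant: the ASPH pair, the exon skips of ATP2A2 and ATP2A3 and the 3′ alternative of ATP2A3. They were picked by their p on these same shares, so their lack of overlap is no separate result. No split by direction over all junctions is given beside them.

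**Figure D5:**
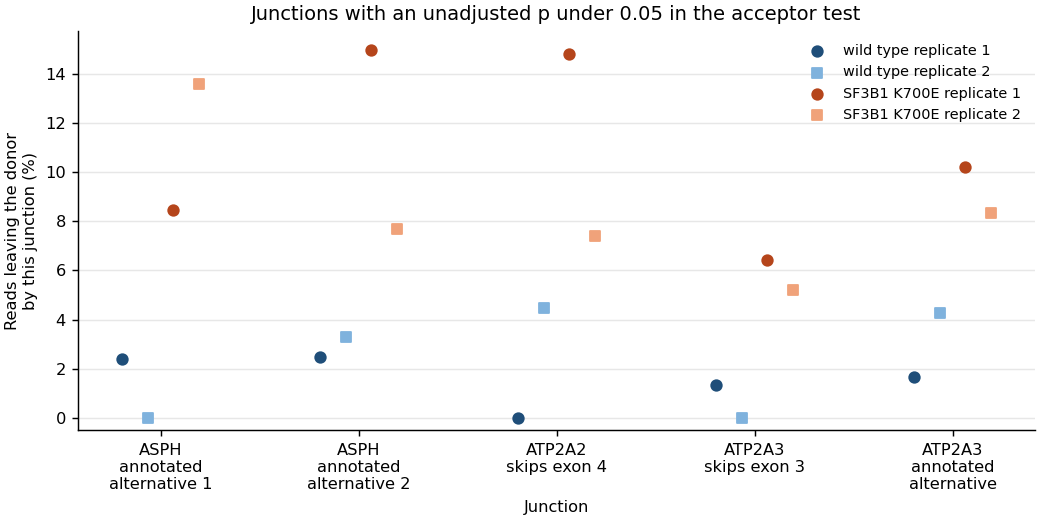
Percent of reads leaving a donor that took the named junction (vertical axis) in each library, for the 5 member junctions with an unadjusted p under 0.05 in the acceptor test, 1 point per library. Both SF3B1 K700E points lie above both wild-type points for each junction, with shares from 5.20% to 15.0% in the mutant libraries. The 5 were picked by their p on these same shares, which largely sets this separation, and 0 of the 5 passed after adjustment.

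Acceptors 10 to 30 nt upstream of an annotated one, the distance typical of SF3B1-mutant cryptic splicing, were counted apart. Among 387 unannotated junctions of the 9 genes, 14 ended in that window, with 9 reads in wild type and 23 in the mutant. The reads numbered 5 in wild type and 10 in the mutant for ITPR2, 0 and 5 for STIM1, 0 and 3 for RYR2 and 0 and 2 for ATP2A3. ITPR3 had 2 and 1, ASPH and ATP2A2 had 1 and 1 each, and TRDN and ITPR1 had none. None reached 10 reads, so none was tested. These reads are not scaled, the mutant libraries held more junction reads, and RYR2's total was higher in the mutant. No count of this window over all genes is given beside them, so the 9 and 23 reads set no rate for either genotype. Of all 387 junctions, 187 rested on a single read.

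In 8 of the 9 genes, all but TRDN, the share of junction reads on unannotated junctions stayed below 7% in every library. STIM1 had 2.86%, 5.64%, 6.29% and 2.38%, and ATP2A3, with the lowest mean in each genotype, 1.39%, 1.04%, 1.26% and 1.75%. ATP2A2 went from 1.86% ± 0.367 to 2.50% ± 0.264, ITPR1 from 1.34% ± 0.224 to 2.17% ± 0.689 and ITPR2 from 2.24% ± 0.287 to 2.62% ± 0.145 (SD, n = 2), each with both mutant libraries above both wild-type ones and an exact p of 0.333, the smallest possible. That ordering is common too: 25.8% of 10200 genes with unannotated reads showed it. Each gene's span was also cut into 3 equal parts, and reads in the last part were divided by those in the first. That log2 ratio differed between genotypes by -0.14 (ITPR2) to 0.17 (ASPH) in the 7 genes with reads in both parts, with exact p-values from 0.667 to 1 (permutation over 6 assignments, 2-sided).

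The wider calcium store pathway showed no called gene. The list took in 79 further genes: luminal buffers and junction proteins, ryanodine receptor partners, pump regulators, STIM and ORAI partners, reticulum chaperones, receptor regulators, mitochondrial uptake proteins, contact site proteins, plasma membrane pumps and phospholipases C. Of these 77 matched the annotation, 53 were tested and 0 were called by edgeR, by DESeq2 or by limma voom, while an unadjusted edgeR p under 0.05 was found for 1 higher and 3 lower genes (3.67% of all tested genes were higher and 6.44% lower at that p). The median log2 difference was -0.06, against 0.00 over all genes tested. Among the 53 tested genes the largest differences were at CLGN, a reticulum chaperone (-1.05, edgeR adjusted p 0.300), and TMEM38A, a potassium channel of the reticulum (-0.98, 0.693). Next came FKBP1B, which binds the ryanodine receptor (-0.77, 0.837), and PLCB1, a phospholipase C (-0.70, 0.513). RCN1, left untested by the filter on low counts, had 1 and 0 reads in wild type and 17 and 13 in the mutant. It was picked after its values were seen.

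Several muscle partners of triadin and RYR2 were silent or nearly so, but RYR1 was not. CASQ2, the cardiac calsequestrin, JPH2, the junctophilin of heart muscle, and the pump inhibitors PLN and SLN had 0 reads in every library. So did 14 names of the list in all, but ARLN and ERLN among them did not match the annotation and could not be counted. CASQ1 had 6, 21, 7 and 9 reads, and RYR3 2, 0, 0 and 3. RYR1, the skeletal muscle ryanodine receptor, had 395, 262, 528 and 791 reads (log2 difference 0.58, edgeR adjusted p 0.513). ORAI1 had 1, 0, 3 and 0 reads, while STIM2, the paralog of STIM1, had 70, 100, 112 and 131 (log2 difference 0.11, edgeR adjusted p 0.970). CASQ1, CASQ2 and RYR1 also stand on the muscle marker list.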

How the data were processed

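Chromatin-bound RNA of 4 K562 libraries was sequenced, and the authors deposited lists of the counts of reads over each splice junction, made with STAR 2.7.10a on GRCh38.p12 per the file headers of the run logs. GENCODE releases 27 and 22 supplied 353424 junctions in the index and 1887 more at mapping, per the same logs. Uniquely mapped reads were used as deposited. Annotated junctions were assigned to genes with GENCODE release 29, and reads that fit more than 1 gene were left out. Junction reads leave out all unspliced RNA, so a gene with slow or late splicing counts low.

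Gene totals were tested with edgeR 4.0.16 (quasi-likelihood, TMM, its filter on low counts, Benjamini-Hochberg adjustment, adjusted p of 0.05, genotype only). Introns within a gene and acceptors of a donor were tested with diffSpliceDGE on junctions with at least 10 reads. Shares were tested by exact permutation of the 4 libraries (6 assignments). DESeq2 1.42.0, limma 3.58.1 and the settings in the closing section served as alternatives. The tests were checked on simulated counts. Wilson intervals (95%) and limits of 3 reads for a count of 0 cover counting error only, since reads carry no molecular identifiers. The reference transcript is the APPRIS principal transcript with the most exons.

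The genes, lists and tests were chosen with earlier results of these data known. Named were all 9 genes, the 4 tested calcium list genes with the largest change and the 3 genes nearest TRDN and RYR2. Each gene's first, last, fullest and most shifted intron and unannotated junctions with at least 10 reads were also named. Replicate numbers were not taken as pairs: the replicate differences of the genotypes had a correlation of -0.207 over genes, and the labels give no shared source. Replicates of a genotype differed by more than sampling noise (chi-square per degree of freedom 11.5 and 17.2). One sequence and its junction are not reported here.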

Additional observations from a re-analysis of the deposited data

How the results depend on the processing

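Of 10827 genes, 101 were called in the gene totals, against 217 with DESeq2. Leaving out 1 library moved this from 0 (without SF3B1 K700E replicate 2) to 317 (without wild type replicate 2), so the background share of calls rests on single libraries. The lone sample of a genotype is then assumed to vary like the others. Of the 7 genes other than TRDN and RYR2, 0 were called, against 1 (STIM1) with DESeq2 and 0 to 1 with 1 library left out. Introns called over all genes numbered 13, against 5 at a minimum of 20 reads, 6 with limma voom and 0 to 6 with 1 library left out. Junctions called in the acceptor test numbered 32, against 13 at a minimum of 1 read, 15 with limma voom and 6 to 16 with 1 library left out. None of the introns or junctions of the 9 genes, nor any gene of the calcium list, was called under any of these settings. With the replicate number as a block, 136 genes, 2 introns and 19 junctions were called. The crossed replicate block, chosen after seeing the data, called 460 genes, 1 of them among the 7.

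With 1 library left out, the log2 difference of the gene total ran from -3.95 to -3.12 for TRDN, from 1.89 to 2.61 for RYR2 and from -1.20 to -0.91 for STIM1. It changed sign for ASPH (-0.16 to 0.14), ATP2A2 (-0.0585 to 0.22) and ATP2A3 (-0.53 to 0.11). The difference in unannotated share, in percentage points, ran from -0.516 to 2.54 (TRDN), -2.11 to 1.53 (RYR2), -0.0662 to 0.475 (ASPH), -0.379 to 1.02 (ITPR3) and -1.87 to 2.04 (STIM1). Only junctions with at least 3 reads gave 0.475 for RYR2 and -0.00223 for ITPR3. The difference in the log2 ratio of last to first part ran from -0.10 to 0.44 (ASPH), -0.28 to 0.13 (ITPR1), -0.28 to 0.00446 (ITPR2), -0.48 to 0.48 (ITPR3), -0.00841 to 0.34 (ATP2A2), -0.23 to 0.30 (ATP2A3) and -0.16 to 0.48 (STIM1), and was 0.0683 for ITPR3 with the span cut at its middle. These sign changes concern differences near 0, and their cause was not tested. With 2 libraries a genotype, an exact test cannot go below 0.333, and junctions under 10 reads set no rate.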
